A study of Homo sapiens with 36 samples.

Results

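The retinoblastoma (RB) pocket proteins, the MuvB complex, B-MYB and FOXM1 are described here as transcripts in LNCaP cells treated with inhibitors of the cell cycle kinase CDK4. They are encoded by 10 genes, chosen by gene symbol through their Ensembl identifiers in GENCODE release 44 and all found among the 29872 genes of the table. RB1, RBL1 and RBL2 encode the pocket proteins, LIN9, LIN37, LIN52, LIN54 and RBBP4 the subunits of MuvB, MYBL2 encodes B-MYB and FOXM1 a forkhead transcription factor.

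LNCaP is an established human prostate cancer line. The cells received vehicle, AU2-94 at 1 or 2 µM, atirmociclib at 1 or 2 µM, or ribociclib at 2 µM, and were harvested after 24 h or 72 h, which gave 12 groups of 3 biological replicates and 36 RNA-seq libraries. AU2-94 and atirmociclib are described in the study as selective for CDK4, whereas ribociclib inhibits CDK4 and CDK6. The study's kinase assays found AU2-94 the more selective. Atirmociclib was more potent than AU2-94 against CDK6, CDK1, CDK2, CDK7 and CDK9. The labels also give the vehicle groups a dose of 2 µM. Cells meant for 72 h were plated more sparsely, so time and plating density cannot be told apart. A single cell line was used, and all groups came from it.

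Pocket proteins bind E2F transcription factors and hold their target genes silent. Cyclin D with CDK4 or CDK6, and then cyclin E with CDK2, phosphorylates them and releases E2F. MuvB has no fixed output of its own: with RBL1 (p107) or RBL2 (p130), E2F4 or E2F5 and a DP partner it forms the repressor complex DREAM in resting cells, and in cycling cells it leaves the pocket protein and joins B-MYB and then FOXM1 to switch on genes of G2 and mitosis. DYRK1A phosphorylates LIN52, which favours the assembly of DREAM. The system therefore has repressive members (RB1, RBL1, RBL2), a shared core (MuvB) and activating members (MYBL2, FOXM1), and several of its genes are themselves known E2F or DREAM targets.

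The sequence just before the start of transcription is shown for RBL1, MYBL2 and RBBP4. RBL1 and RBBP4 held an E2F motif as first defined, and MYBL2 only a form added later. RBL1 and MYBL2 belonged to the genes that fell, and RBBP4 scarcely moved. RefSeq windows (GRCh38.p14) of 250 bases before the start were matched for 9 of the 10 genes, not for FOXM1. The search covered both strands. The CHR motif was spelt TTTGAA or, as its other form, TTCGAA. The E2F motif was spelt TTCGCGC or, as its other form, TTGGCGC. The CCAAT box was searched by its name's letters, and the motif of B-MYB was AACGG. A further E2F motif, TTGGCGG, was added after the sequences had been seen. The RBL1 window lies on the minus strand at chr20:37095998-37096247, ends at the annotated start of the gene, and is printed whole. MYBL2 and RBBP4 are printed as 29 bases round their motifs, at chr20:43667062-43667090 and chr1:32651150-32651178, both on the plus strand and inside the gene as annotated by GENCODE, whose starts lie further upstream. All are written 5′ to 3′ along the gene, and capitals mark motif matches on either strand.
RBL1: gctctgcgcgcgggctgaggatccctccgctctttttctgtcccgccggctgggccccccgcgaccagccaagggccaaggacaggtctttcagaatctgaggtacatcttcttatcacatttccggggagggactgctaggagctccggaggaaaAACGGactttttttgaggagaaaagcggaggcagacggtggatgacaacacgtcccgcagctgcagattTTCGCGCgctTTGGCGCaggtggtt
MYBL2: cgccgacgcgcTTGGCGGgagatagaaaa
RBBP4: tcccATTGGctgatgTTGGCGCGAAggtg

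RBL1 carried both forms of the E2F motif on its own strand, TTCGCGC starting 25 bases and TTGGCGC starting 15 bases before the start, and an AACGG starting 94 bases before it. In RBBP4 the capitals TTGGCGCGAA are TTGGCGC and, overlapping it on the other strand, TTCGCGC, and ATTGG is CCAAT read on the other strand. MYBL2 held TTGGCGG, starting 41 bases before the start, and none of the other motifs. An E2F motif as first defined was thus in 2 of the 9 windows, against 4.2% of 35116 windows of the same length over all genes. The added TTGGCGG was in 2 (MYBL2 and LIN54), against 2.9%. As TTGGCGG was added with these windows already seen, its count cannot be weighed against the share over all windows. CCAAT was in 3 (LIN37, LIN52 and RBBP4; 32.0% of all windows), CHR in 1 (LIN54; 14.3%) and AACGG in 1 (RBL1; 16.5%). The RBL2 window held none of these letters. The RB1 window matched in RefSeq lies 172706 bases inside the annotated gene and is no description of its main promoter. The LIN54 window ends 2092 bases and the RBL2 window 494 bases inside the annotated gene. RBL2, LIN37, LIN54 and RBBP4 had 2 windows each and LIN9 had 3, of which 1 per gene is described. What is said of these genes holds for that window alone. All matches are descriptions of letters, not of binding.

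Values are normalised counts, the authors' depth-corrected read counts per gene. Library totals were 20675156 to 22692555 normalised counts, with 19708 to 21405 genes above 0, and all 10 genes passed the filter on low values at both time points. The totals differed between groups. At 24 h the vehicle libraries held 20675156 to 20824457, and the lowest treated library 21109729. At 72 h vehicle held 21436280 to 21617499, AU2-94 at 2 µM 20959012 to 21160254 and atirmociclib at 2 µM 22577368 to 22692555. Calls with libraries scaled to equal totals are given below. All 10 markers of LNCaP prostate epithelium were present in each library (KLK3 19802 to 55194). Medians over the libraries were 0 to 0.6 for COL1A2, DCN and LUM of fibroblasts, PTPRC, CD3E, CD14 and LYZ of leukocytes, CHGA, CHGB and INSM1 of neuroendocrine cells and KRT5 and TP63 of basal epithelium. COL1A1 (194.2 to 643.9), COL3A1 (5.5 to 36.9), PDGFRB (5.2 to 48.7), CD68 (34.9 to 143.8), SYP (from 6.6, median 18.8), NCAM1 (0.0 to 12.5, median 1.0) and KRT14 (4.4 to 88.6) of those lists were present. The summed level of the 10 LNCaP markers was 99469 to 104380 in the 6 vehicle libraries and 134174 to 175818 in the 30 treated libraries, with no overlap. The summed level of the basal list was 4 to 21 in vehicle and 23 to 60 in treated libraries at 24 h, and 5 to 25 against 39 to 89 at 72 h. The basal sum rested on KRT14, as KRT5 reached at most 1.0 and TP63 at most 4.0. The part of both sums in the results below was not tested. In bulk RNA, fewer cells of a kind and less RNA per cell cannot be told apart.

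Compared with vehicle, the activating members fell most, RBL1 fell beside them, RBL2 rose, and RB1 and the MuvB subunits moved by less than 1 on the log2 scale. Among the 50 combinations of 10 genes with 5 treatments, 28 were lower and 5 higher at 24 h, and 19 were lower and 5 higher at 72 h, at an adjusted p of at most 0.05 in limma. At 24 h, 4 of the 10 genes were lower with 1 µM AU2-94 (13.5% of all 16137 genes tested were), 6 with 2 µM AU2-94 (14.9%), 8 with 1 µM atirmociclib (15.4%), 6 with 2 µM atirmociclib (16.2%) and 4 with ribociclib (15.2%). At 72 h the numbers were 3 (17.0% of 16341 genes), 4 (15.3%), 4 (19.8%), 4 (19.6%) and 4 (15.4%) in the same order. The 1 gene that rose in each of the 10 comparisons was RBL2, beside 14.3%, 16.0%, 16.6%, 18.6% and 16.8% of all genes at 24 h and 15.4%, 14.2%, 20.0%, 20.9% and 15.5% at 72 h. MYBL2, FOXM1 and RBL1 were lower in all 5 treatments at 24 h, as were 7.82% of all genes, and MYBL2 and FOXM1 were at 72 h (8.59%); RBL2 was higher in all 5 at both times, beside 9.20% and 8.54% of all genes. With a log2 fold change of at least 1 as a further condition, 13 combinations were lower at 24 h and 7 at 72 h, all of MYBL2, FOXM1 and RBL1. The genes past this condition numbered 2, 2, 3, 3 and 3 at 24 h, against 2.40%, 2.94%, 4.22%, 4.82% and 3.66% of all genes lower, and 0, 0, 2, 3 and 2 at 72 h, against 0.869%, 0.838%, 2.67%, 3.67% and 1.54%.

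MYBL2 (ENSG00000101057; GRCh38 chr20:43667019-43716495, plus strand) encodes B-MYB, which binds MuvB in S phase. It fell in all 5 treatments at both time points. At 24 h the vehicle libraries held 2790, 2767 and 2736 normalised counts. AU2-94 left 805, 785 and 889 at 1 µM, and 445, 519 and 591 at 2 µM. Every treated library was thus below every vehicle library, and the higher dose of AU2-94 gave the lower counts. The counts after atirmociclib were 279, 284 and 275 at 1 µM, and 357, 309 and 369 at 2 µM. After ribociclib they were 500, 473 and 459. The log2 fold changes against vehicle ran from -3.30 (atirmociclib at 1 µM, 10.1% of the vehicle mean) to -1.74 (AU2-94 at 1 µM, 29.9%), each with SE 0.09 and with adjusted p from 7.43e-15 to 2.06e-10 in limma.

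At 72 h vehicle stood at 2995, 3114 and 3092 normalised counts of MYBL2. AU2-94 left 1725, 1593 and 1538 at 1 µM and 1703, 1678 and 1651 at 2 µM. These were roughly the same at the 2 doses, and far above their 24 h values. Atirmociclib left 962, 948 and 904 at 1 µM and 743, 838 and 783 at 2 µM. Ribociclib lay between the compounds, at 1400, 1370 and 1311. The log2 fold changes ran from -1.96 (atirmociclib at 2 µM, 25.7% of vehicle) to -0.87 (AU2-94 at 2 µM, 54.7%), each with SE 0.06 and with limma adjusted p from 6.66e-15 to 3.45e-09. In the order of the 12 group means, both vehicles came first and all 24 h treatments except AU2-94 at 1 µM last; neighbours whose libraries overlapped were the 2 doses of AU2-94 at 72 h, AU2-94 at 1 µM at 24 h with atirmociclib at 2 µM at 72 h, and AU2-94 at 2 µM with ribociclib at 24 h.

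FOXM1 (ENSG00000111206; chr12:2857680-2877174, minus strand) encodes the factor that joins B-MYB and MuvB on genes of G2 and mitosis. It also fell in all 5 treatments at both times, within a narrower band. Vehicle held 3447, 3589 and 3289 normalised counts at 24 h. AU2-94 left 1133, 997 and 1137 at 1 µM and 806, 955 and 959 at 2 µM. Atirmociclib left 801, 813 and 835 at 1 µM and 974, 840 and 987 at 2 µM, and ribociclib 833, 914 and 831. All treated groups but AU2-94 at 1 µM overlapped a neighbour in the order of means. Log2 fold changes against vehicle were -2.07 to -1.66 (SE 0.08, limma adjusted p 4.66e-13 to 5.68e-11).

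At 72 h vehicle held 3664, 3560 and 3608 normalised counts of FOXM1. AU2-94 left 2028, 2024 and 2040 at 1 µM and 2203, 2007 and 2177 at 2 µM. Here the compounds separated: atirmociclib left 1415, 1366 and 1391 at 1 µM and 1307, 1391 and 1484 at 2 µM, and ribociclib 1810, 1828 and 1734. Its log2 fold changes were -1.38 to -0.76 (SE 0.05, limma adjusted p 2.22e-13 to 5.35e-09). Of the exon bases of FOXM1, 15.9% overlap ITFG2 on the opposite strand, and the strand setting of the counting is not given in the sources used here. ITFG2 held 505 ± 27.8 (SD, n = 3) normalised counts in vehicle at 24 h, with log2 fold changes of -0.43 to -0.18 at 24 h and -0.30 to 0.19 at 72 h. It was lower in 4 treatments at 24 h and in 1 at 72 h.

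RBL1 (ENSG00000080839; chr20:36996349-37095997, minus strand) encodes p107, the pocket protein of cycling cells. It fell in all 5 treatments at 24 h and in 4 of 5 at 72 h. Vehicle libraries held 727, 727 and 636 normalised counts at 24 h. AU2-94 left 430, 580 and 374 at 1 µM and 329, 399 and 389 at 2 µM. Atirmociclib left 301, 222 and 212 at 1 µM and 214, 309 and 311 at 2 µM, and ribociclib 244, 330 and 401. No treated library reached the vehicle range, but the replicates of a group spread more widely than for MYBL2. The log2 fold changes were -1.52 (atirmociclib at 1 µM) to -0.61 (AU2-94 at 1 µM), with SE 0.19 and limma adjusted p 6.89e-06 to 0.0234. The call for AU2-94 at 1 µM was lost without replicate 1 or replicate 3 of that group (adjusted p 0.0693 and 0.115) and without vehicle replicate 1 or 2 (0.0693 and 0.0686).

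At 72 h RBL1 stood at 687, 589 and 683 normalised counts in vehicle. AU2-94 left 492, 539 and 561 at 1 µM and 558, 458 and 432 at 2 µM. Atirmociclib left 426, 397 and 345 at 1 µM and 288, 243 and 237 at 2 µM, and ribociclib 494, 434 and 396. The log2 fold change was -1.35 with atirmociclib at 2 µM (SE 0.12, limma adjusted p 2.78e-08), and the other groups stood between it and -0.30 with AU2-94 at 1 µM, which did not pass (adjusted p 0.0586; 0.0362 with the replicate number as a block).

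RBL2 (ENSG00000103479; chr16:53433977-53491648, plus strand) encodes p130, the pocket protein of resting cells and the usual one in DREAM. It rose in all 5 treatments at both times. Vehicle held 2249, 2332 and 2272 normalised counts at 24 h. AU2-94 gave 3087, 3132 and 3117 at 1 µM and 3394, 3197 and 3244 at 2 µM. Atirmociclib gave 3427, 3321 and 3110 at 1 µM and 3387, 3204 and 3114 at 2 µM, and ribociclib 3271, 3394 and 3424. All treated libraries lay above all vehicle libraries, while the treated groups overlapped each other in order of their means. Fold changes on the log2 scale were 0.45 to 0.56 (SE 0.05, limma adjusted p 2.42e-08 to 7.06e-07), that is 136% to 147% of the vehicle mean.

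At 72 h vehicle held 2032, 2252 and 2073 normalised counts of RBL2. AU2-94 gave 2623, 2790 and 2611 at 1 µM and 2558, 2722 and 2768 at 2 µM. Atirmociclib gave 2944, 2979 and 3064 at 1 µM and 3281, 3177 and 3068 at 2 µM, and ribociclib 3014, 2573 and 2947. The log2 fold changes were 0.34 to 0.58 (SE 0.06, limma adjusted p 2.38e-07 to 0.000269). AKTIP overlaps 7.5% of the exon bases of RBL2 on the opposite strand. It held 704 ± 52.8 normalised counts in vehicle at 24 h (SD, n = 3), was higher in 2 treatments at 24 h (log2 fold changes over the 5 treatments 0.10 to 0.29) and in none at 72 h (-0.12 to -0.02), where RBL2 was still higher.

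RB1 (ENSG00000139687; chr13:48303744-48599436, plus strand), the founding pocket protein gene, changed little. Vehicle held 1078, 1119 and 1025 normalised counts at 24 h and 998, 1085 and 977 at 72 h. The lowest group was atirmociclib at 2 µM at 24 h, with 855, 803 and 846 normalised counts. RB1 was lower with atirmociclib at 24 h, by log2 fold changes of -0.34 at 1 µM and -0.36 at 2 µM (SE 0.08, limma adjusted p 0.00322 and 0.00179), and with ribociclib at 72 h by -0.22 (SE 0.07, adjusted p 0.0241), a call lost without replicate 2 of that ribociclib group (adjusted p 0.109) or of its vehicle (0.113). In the other 7 comparisons with vehicle it was not called, with log2 fold changes from -0.16 to -0.05. Scaling all libraries to equal totals added an RB1 call with atirmociclib at 2 µM at 72 h (-0.21, limma adjusted p 0.0292).

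The MuvB subunits moved by smaller steps and mostly at 24 h. LIN9 (ENSG00000183814; chr1:226231149-226309869, minus strand), a scaffold of the complex, held 381, 385 and 387 normalised counts in vehicle at 24 h and 255, 264 and 284 with 2 µM AU2-94, 228, 304 and 257 with 1 µM atirmociclib, and 317, 244 and 309 with 2 µM atirmociclib. These 3 groups were lower, by log2 fold changes of -0.52, -0.56 and -0.41 (SE 0.11, limma adjusted p 0.00159, 0.00082 and 0.00745); the last was lost without replicate 2 of its group (adjusted p 0.0529). With ribociclib at 24 h it had -0.27 (adjusted p 0.0788). That passed with equal totals (0.0312), all 36 libraries in one fit (0.0384) or the compared groups fitted alone (0.0479). At 72 h LIN9 passed in none, with log2 fold changes of -0.19 to 0.00, and only 1 of the 5 had an unadjusted p under 0.05. Without vehicle replicate 2 at 72 h, it was lower with AU2-94 at 1 µM (-0.29, limma adjusted p 0.0254).

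LIN52 (ENSG00000205659; chr14:74084956-74201493, plus strand), the subunit that contacts the pocket protein, held 259, 265 and 248 normalised counts in vehicle at 24 h, and all 15 treated libraries were below that, at 135 to 230. It passed in 3 treatments at 24 h, with log2 fold changes of -0.41 for both doses of AU2-94 and -0.68 for atirmociclib at 1 µM (SE 0.13, limma adjusted p 0.0288, 0.0274 and 0.000723). The other 2 treatments had -0.34 each (adjusted p 0.0565 and 0.0664), and passed with the replicate number as a block (0.0336 and 0.0399). At 72 h the same 3 treatments passed, with -0.57, -0.60 and -0.83 (SE 0.18, adjusted p 0.0174, 0.0145 and 0.00102), from vehicle libraries at 301, 331 and 274. The AU2-94 calls of LIN52 were the least stable of these: at 24 h the 1 µM call was lost without any of 5 libraries (AU2-94 replicate 1 or 3, vehicle replicate 1, 2 or 3; adjusted p 0.0502 to 0.105) and the 2 µM call without any of 4 (0.0667 to 0.105), and at 72 h each was lost without either of 2 libraries (0.0615 to 0.0976).

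LIN54 (ENSG00000189308; chr4:82909973-83012926, minus strand), the DNA-binding subunit that reads the CHR motif, held 634, 808 and 722 normalised counts in vehicle at 24 h. It was lower in 4 treatments at 24 h, all but AU2-94 at 1 µM, with log2 fold changes of -0.60 to -0.41 (SE 0.13, limma adjusted p 0.00119 to 0.0193), and in 1 at 72 h, atirmociclib at 2 µM, with -0.37 (SE 0.11, adjusted p 0.0102). That 72 h call was lost without replicate 3 of its group (adjusted p 0.0716), the ribociclib call at 24 h without ribociclib replicate 1 (0.081) or vehicle replicate 2 or 3 (0.0977 and 0.0502), and the AU2-94 2 µM call at 24 h without vehicle replicate 2 (0.0514). RBBP4 (ENSG00000162521; chr1:32651142-32686211, plus strand), a histone-binding protein shared with many chromatin complexes, held 5355, 5010 and 5009 normalised counts in vehicle at 24 h and 4376 to 5201 over the 15 treated libraries. It passed with atirmociclib at 1 µM at 24 h alone, by -0.14 (SE 0.04, adjusted p 0.0223), and that was lost without replicate 3 of the group (0.133) or vehicle replicate 1 (0.115), without the trend (0.0509) and with the compared groups fitted alone (0.0684). Scaling all libraries to equal totals added RBBP4 calls with 2 µM atirmociclib and with ribociclib at 24 h (-0.15 and -0.14). The pseudogenes RBBP4P1 and RBBP4P2, not analysed here, hold near-identical stretches of 406 and 112 bases, and SYNC, listed at 8.01 normalised counts in vehicle at 24 h, overlaps 22.8% of the exon bases on the other strand, so RBBP4 values are less certain.

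LIN37 (ENSG00000267796; chr19:35748361-35754519, plus strand), the subunit needed for repression by DREAM, held 130, 151 and 130 normalised counts in vehicle at 24 h and 107, 144 and 158 at 72 h. It passed in no comparison with vehicle; the log2 fold changes were -0.11 to 0.08 at 24 h (SE 0.17) and 0.04 to 0.39 at 72 h (SE 0.15), with 2 of the 10 at an unadjusted p under 0.05. Its 95% intervals at 24 h ran from -0.48 to 0.45. Without vehicle replicate 3 at 72 h, LIN37 was higher with 2 µM AU2-94 and with 1 µM atirmociclib (adjusted p 0.0326 and 0.0391); without AU2-94 replicate 3, or with equal totals, it was higher with 2 µM AU2-94 (0.048 and 0.0492). Exons of LIN37 are shared with a gene on the same strand, ENSG00000188223 (26.7% of its bases), for which no counts are listed. They also overlap a long non-coding RNA on the other strand (41.8%), with a mean of 1.2 normalised counts over the libraries. The shared exons make the count of LIN37 uncertain too.

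**Figure D1:**
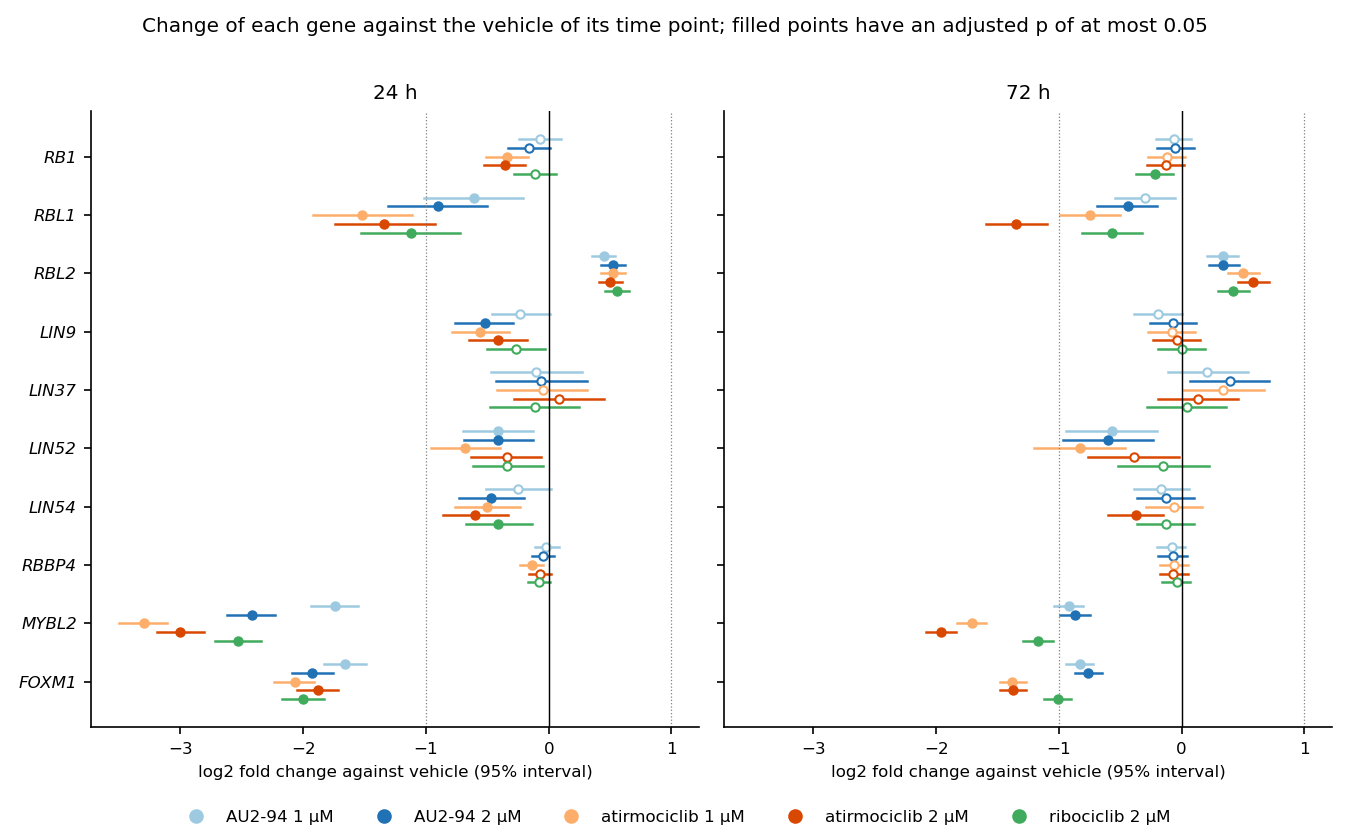
Log2 fold change of each gene against the vehicle of its time point (x axis; points, with 95% intervals as lines; colours give the treatment, filled points had an adjusted p of at most 0.05, dotted lines mark a log2 fold change of 1 in either direction). MYBL2 spans -3.30 to -1.74 at 24 h and -1.96 to -0.87 at 72 h, RBL2 lies at 0.34 to 0.58 throughout, and the MuvB subunits lie between -0.83 and 0.39.

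Separation of the groups, read from the same libraries, differed from the calls for some genes. All 15 treated libraries lay below the 3 vehicle libraries for RBL1, LIN9, LIN52, MYBL2 and FOXM1 at 24 h, as for 10.7% of all genes, and for RBL1, MYBL2 and FOXM1 at 72 h, as for 11.3%. RBL2 was the gene with all 15 above, as for 11.0% of all genes at 24 h and 9.96% at 72 h. LIN9 and LIN52 separated at 24 h but passed in 3 treatments each, and RBL1 separated at 72 h but passed in 4. LIN54 passed in 4 treatments at 24 h and did not separate.

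Levels between genes were compared per kilobase of merged exons. In vehicle at 24 h the activating members led, with 996 ± 9.79 normalised counts per kilobase for MYBL2 and 700 ± 30.5 for FOXM1 (SD, n = 3). RBBP4 followed at 541 ± 21.0, then RBL2 at 282 ± 5.30, RB1 at 167 ± 7.34 and RBL1 at 117 ± 8.84. The MuvB subunits other than RBBP4 stood at 107 ± 12.9 (LIN54), 86.6 ± 0.686 (LIN9), 67.8 ± 2.27 (LIN52) and 48.6 ± 4.39 (LIN37). RBL1 and LIN54 were the only neighbours in this order whose libraries overlapped. With atirmociclib at 1 µM at 24 h, RBBP4 (492 ± 27.1) and RBL2 (405 ± 19.9) led, FOXM1 stood at 166 ± 3.52, RB1 at 132 ± 17.2 and MYBL2 at 101 ± 1.65, and RBL1 had moved to the bottom at 41.2 ± 8.21, overlapping LIN52. At 72 h MYBL2 led again with AU2-94, at 583 ± 34.7 for 1 µM and 604 ± 9.31 for 2 µM, but stood below RBBP4 and RBL2 with atirmociclib, at 338 ± 11 for 1 µM and 284 ± 17.2 for 2 µM.

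Ratios within a library do not depend on its scaling. Log2 of RBL2 over RBL1 was 1.63, 1.68 and 1.84 in the vehicle libraries at 24 h and 1.56, 1.93 and 1.60 at 72 h. Group means of the treated cells were 2.78 to 3.76 at 24 h and 2.33 to 3.63 at 72 h. Log2 of RBL2 over MYBL2, from counts not corrected for exon length, rose with treatment. The means were -0.27 ± 0.03 and -0.53 ± 0.06 in the 2 vehicle groups. In the treated groups they were 1.91 to 3.55 at 24 h and 0.68 to 2.01 at 72 h. Where 0 falls depends on exon length (8.11 kilobases for RBL2, 2.776 for MYBL2). Per kilobase at 72 h, MYBL2 stayed above RBL2 with AU2-94 (583 against 330 at 1 µM, 604 against 331 at 2 µM) and ribociclib (490 against 351). In the other treated groups RBL2 was above MYBL2 per kilobase. MYBL2 over the mean of the 5 MuvB subunits fell from 2.33 ± 0.06 (log2, SD, n = 3) in vehicle at 24 h to between -0.59 and 0.79, and from 2.42 ± 0.01 at 72 h to between 0.60 and 1.65. These are descriptions with no test, since each is made of genes already tested.

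The treatments were then compared with each other, at matched doses and between doses of AU2-94 or atirmociclib. There were 6 comparisons per time point. Of 60 combinations of gene and comparison, 6 were lower and none higher at 24 h, and 13 were lower and 1 higher at 72 h. Atirmociclib left lower levels than AU2-94 at 1 µM at 24 h for MYBL2 (log2 difference -1.56, SE 0.09, limma adjusted p 1.80e-09), RBL1 (-0.90, SE 0.19, 0.00885; 0.0515 without atirmociclib replicate 3) and FOXM1 (-0.41, SE 0.08, 0.00393), that is 3 of the 10 genes beside 3.16% of all genes; 1.48% were higher. At 2 µM at 24 h, MYBL2 alone passed, with -0.58 (SE 0.09, adjusted p 0.000559; 4.31% of all genes were lower and 5.12% higher). FOXM1 differed by 0.04 there, with a 95% interval of -0.12 to 0.21, and RBL1 by -0.44 (-0.84 to -0.03).

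At 72 h the difference between atirmociclib and AU2-94 covered the same genes at both doses. At 1 µM it was -0.79 for MYBL2, -0.55 for FOXM1 and -0.45 for RBL1 (SE 0.06, 0.05 and 0.12; limma adjusted p 5.55e-08, 1.37e-06 and 0.0216), beside 3.70% of all genes lower and 4.53% higher. The RBL1 difference at 1 µM was lost without replicate 2 or 3 of AU2-94 or of atirmociclib (adjusted p 0.0527 to 0.113). At 2 µM it was -1.09, -0.61 and -0.91 in the same order (adjusted p 1.56e-10, 1.02e-07 and 1.65e-05), beside 8.73%. RBL2 was the 1 gene higher with atirmociclib at 2 µM, by 0.24 (SE 0.06, adjusted p 0.00659; 11.1% of all genes were higher), a call lost with libraries scaled to equal totals (0.14, adjusted p 0.12) and with quantile normalisation (0.17, 0.0639).

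Between ribociclib and AU2-94 at 2 µM, none of the 10 genes passed at 24 h in limma and 1 had an unadjusted p under 0.05, where 0.0186% of all genes passed in each direction. The interval for MYBL2 was -0.30 to 0.08 and for FOXM1 -0.24 to 0.09. At 72 h ribociclib left lower MYBL2 (-0.30, SE 0.06, adjusted p 0.00691) and FOXM1 (-0.25, SE 0.05, 0.013) than AU2-94, beside 1.38% of all genes lower and 1.96% higher. The FOXM1 difference was lost without AU2-94 replicate 1 or 3 (adjusted p 0.0513 and 0.0642). Atirmociclib compared with ribociclib at 2 µM left less MYBL2 at 24 h (-0.47, SE 0.09, adjusted p 0.00489; 2.81% of all genes lower, 1.83% higher) and less MYBL2 (-0.79), RBL1 (-0.78) and FOXM1 (-0.36) at 72 h (adjusted p 2.79e-08, 0.000197 and 0.000128; 4.35% of all genes lower, 4.83% higher).

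Few of the genes differed between doses. From 1 to 2 µM of AU2-94, MYBL2 fell further at 24 h (-0.68, SE 0.09, limma adjusted p 0.00152; 0.384% of all genes were lower and 0.0248% higher), while at 72 h none of the 10 genes passed in limma, nor did any other (0.00% in each direction), with 0 of the 10 at an unadjusted p under 0.05 and an interval for MYBL2 of -0.07 to 0.17. From 1 to 2 µM of atirmociclib none of the 10 passed at 24 h, with 3 at an unadjusted p under 0.05, among them MYBL2 at 0.30 (0.11 to 0.49, adjusted p 0.354), beside 0.00620% of all genes in each direction. At 72 h RBL1 (-0.60, SE 0.12, adjusted p 0.00998) and MYBL2 (-0.25, SE 0.06, 0.0273) were lower at the higher dose, beside 0.936% of all genes lower and 1.25% higher. The RBL1 call was lost without replicate 1 of the 1 µM group (adjusted p 0.0681), and the MYBL2 call without any of 4 libraries (replicate 1 or 2 at 1 µM, 1 or 3 at 2 µM; 0.0666 to 0.15).

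In vehicle, the 10 genes did not pass between 72 h and 24 h in limma, where 3.64% of all 16850 genes were lower and 3.85% higher; 1 of the 10 had an unadjusted p under 0.05, RBL2 at -0.11 (95% interval -0.22 to -0.00). MYBL2 had 0.15 (-0.00 to 0.30) and FOXM1 0.07 (-0.07 to 0.21). The effects of the treatments on MYBL2 and FOXM1, in contrast, were smaller at 72 h. Subtracting the 24 h effect from the 72 h effect gave a value above 0 at an adjusted p of at most 0.05 in 13 of 50 combinations and below 0 in none; in the order used above, 2, 3, 4, 2 and 2 of the 10 genes passed upwards, against 10.1%, 9.26%, 11.3%, 11.7% and 10.5% of all genes, while 11.5%, 9.28%, 10.6%, 9.96% and 9.66% of all genes passed downwards. MYBL2 and FOXM1 passed in all 5 treatments, by 0.82 to 1.59 (SE 0.11) and 0.51 to 1.16 (SE 0.09). RBL1 passed with atirmociclib at 1 µM alone (0.77, SE 0.24, adjusted p 0.0173), while with atirmociclib at 2 µM its effect differed by -0.01 (95% interval -0.49 to 0.47). RBL2 passed in none, with -0.18 to 0.08 (SE 0.07), although AU2-94 at 2 µM had an unadjusted p of 0.02.

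The other genes of the pathway are given from 4 lists. Beside their counts, 13.5% to 16.2% of all genes were lower against vehicle at 24 h and 15.3% to 19.8% at 72 h. The shares of all genes that were higher were 14.3% to 18.6% and 14.2% to 20.9%. Among the kinases and inhibitors that act on pocket proteins, 14 of 15 were tested, 6 to 8 fell at 24 h and 7 to 8 at 72 h, and 1 rose in every comparison. The list medians were -0.69 to -0.41 and -0.39 to -0.16, against a median over all genes that stayed within 0.01 of 0. The 1 gene that rose was CCND1, cyclin D1, from 7593 ± 180 normalised counts in vehicle (SD, n = 3) to 11175 to 12330 at 24 h, with log2 fold changes of 0.56 to 0.70 (SE 0.04). CDK4 itself, at 2335 ± 71.4 normalised counts, had -0.01 to 0.04 at 24 h and passed in none, and was lower in 3 treatments at 72 h (-0.29 to -0.08, SE 0.06). CDK6 was low, at 113 ± 77.4 in vehicle at 24 h and 16.6 ± 2.13 at 72 h, and passed in none. CCNE2, cyclin E2, and CDKN2C, an inhibitor of CDK4 and CDK6, fell in all 5 treatments, by mean log2 fold changes of -2.87 and -2.44 at 24 h and -1.43 and -1.73 at 72 h. The inhibitors CDKN1C and CDKN2B were the named ones at the other end, with means of 0.36 at 24 h and 0.35 at 72 h, and passed in none. Both were low in vehicle, CDKN1C at 20.6 ± 1.90 at 24 h and CDKN2B at 12.5 ± 5.70 at 72 h. At the other time point CDKN1C had a mean of 0.24 and CDKN2B of -0.87.

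Of 14 E2F and DP partners, DYRK1A and paralogues, 8 to 9 fell at 24 h and 6 to 8 at 72 h, while at most 1 rose in any comparison. Among them E2F8 and E2F7, E2Fs that repress without a pocket protein, fell by mean log2 fold changes of -3.30 and -2.88 at 24 h, and -1.59 each at 72 h. E2F1, the classical activator, fell in all 5 treatments at both times, from 1008 ± 53.3 normalised counts to 311 to 665 at 24 h. Of the DREAM partners, E2F4 and E2F5 did otherwise. E2F4 was lower in 1 treatment at 24 h (log2 fold changes -0.26 to 0.02) and in none at 72 h (0.02 to 0.14). E2F5 was higher in 1 at 24 h (0.04 to 0.38). TFDP1 was lower in all 5 at both times, by means of -0.42 and -0.75, whereas TFDP2 was higher in 2 at 24 h (-0.02 to 0.38). E2F3 was lower in 2 at 24 h (-0.24 to -0.06) and higher in 3 at 72 h (0.05 to 0.44). DYRK1A passed in none, with -0.09 to 0.03 at 24 h and -0.08 to 0.00 at 72 h. RBBP7, the close paralogue of RBBP4, was lower in all 5 at 24 h (-0.44 to -0.32, SE 0.06) and in 1 at 72 h (-0.27 to 0.10). MYBL1, the paralogue of MYBL2, fell from 137 ± 34.6 to between 27.3 and 61.3 normalised counts at 24 h, and at 72 h, with -0.60 to -0.40, passed in none.

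Of the 35 genes of DNA replication bound by RB-E2F and DREAM, 32 to 35 were lower at 24 h and 31 to 35 at 72 h, and none was higher. The list medians were -1.80 to -0.83 and -1.08 to -0.57. RRM2, a subunit of ribonucleotide reductase, and CLSPN, a replication checkpoint mediator, fell most at 24 h (means -3.27 and -3.13), and RRM2 and TYMS, thymidylate synthase, at 72 h (-1.54 and -1.42). SLBP and RFC3 moved least at 24 h (-0.56 and -0.48), and RFC3 and MCM3 at 72 h (-0.28 and -0.24). All 38 genes of G2 and mitosis bound by DREAM, B-MYB with MuvB, and FOXM1 were lower in every treatment at 24 h, and 35 to 38 were at 72 h; their medians were -2.45 to -1.54 and -1.47 to -0.52. KIF20A and AURKB, of cytokinesis and chromosome segregation, had the largest means at 24 h (-3.29 and -3.18), CDCA3 and CCNA2 (cyclin A2) at 72 h (-1.39 and -1.33). TTK and CKS2 had the smallest at 24 h (-0.87 and -0.65), and CDC25C and CKS2 at 72 h (-0.36 each). The mean log2 fold changes of MYBL2 and FOXM1, -2.60 and -1.91 at 24 h and -1.33 and -1.07 at 72 h, lay inside the range of this list.

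Across the 12 group means, MYBL2 and FOXM1 followed each other (Pearson r 0.97), RBL1 followed MYBL2 (0.91), and RBL2 ran opposite to FOXM1 (-0.97), MYBL2 (-0.92) and RBL1 (-0.88). LIN54 (0.91) and LIN9 (0.84) followed MYBL2 more closely than LIN52 (0.70), RB1 (0.67), LIN37 (0.28) or RBBP4 (0.08). These points share vehicle groups and libraries, so the coefficients are descriptions with no test. Over the 11331 genes whose normalised counts averaged 100 or more, the 3 most like MYBL2 were TK1 (0.997), KIF4A (0.996) and CDCA3 (0.995), and those most like FOXM1 were LRRC45 (0.992), CCNB1 (0.987) and MYO19 (0.987). The genes nearest RBL1 were CDKN2C (0.981) and the histone genes H3C1 (0.979) and H3C10 (0.976), and those nearest RBL2 were NEDD4L (0.983), KCNN2 (0.981) and TMEM205 (0.980). For LIN9 they were XPR1 (0.977), PARPBP (0.965) and AUNIP (0.961), and for LIN54 AKNA (0.969), BUB1B (0.966) and SCLT1 (0.965). For RB1, RBBP4, LIN52 and LIN37 the nearest genes were less alike: SLC25A40 (0.894) for RB1, MCUR1 (0.921) for RBBP4, RHOG (0.899) for LIN52 and ENSG00000255182 (0.911) for LIN37.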

How the data were processed

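RNA-seq libraries of LNCaP cells were grouped by their labels into 12 groups of 3. The authors aligned reads to GRCh38 with STAR 2.6.1d in nf-core/rnaseq, used DESeq2, and the values they deposited are normalised counts per gene, a read-scaled signal that is not whole numbers; the annotation, counter and strand setting are not given in the sources used here. Count models were therefore not used. Symbols, positions and exon lengths came from GENCODE release 44, and stretches shared with other transcripts (98% identity over 100 bases or more) from BLAST 2.17.0.

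Genes reaching 10 normalised counts in 3 or more libraries of a fit were log2-transformed after adding 1 and tested by limma 3.58.1 under R 4.3.3 (empirical Bayes with trend). Each time point was fitted with its 6 groups, and all 36 libraries served for changes between time points; Benjamini-Hochberg adjustment ran over all genes of a contrast. Fold changes on this scale understate those of low genes. Calls needed an adjusted p of at most 0.05, and where stated a log2 fold change of 1 or more in either direction. Intervals are 95% and unadjusted, and p-values measure the spread between replicates of a cell line.

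The 10 genes and all lists were chosen with earlier results of these data known. Named genes were the 10 members, per list and time point the 2 genes with the largest and the 2 with the smallest signed mean log2 fold change, E2F1, E2F4, E2F5, TFDP1, DYRK1A, RBBP7, MYBL1, CCND1, CDK4 and CDK6, and the 3 genes most like each member; genes that overlap a member and cell type markers stand beside them. The labels give the replicate number as a batch, so a fit with it as a block was run as an alternative, and the fits reported have no block. Deviations of same-numbered libraries from their group means had a mean correlation of 0.00179 at 24 h and -0.00217 at 72 h over 45 pairs each, against -0.000884 and 0.00109 over 90 pairs of unlike number. Alternatives covered the pseudocount, filter, normalisation, trend, replicate block, libraries in the fit and leaving out each library.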

Additional observations from a re-analysis of the deposited data

Results flagged for a closer look

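In 13 combinations of gene and treatment, the effect against vehicle differed between 24 h and 72 h by a test of that difference itself (limma, all 36 libraries, Benjamini-Hochberg adjusted p at most 0.05). In each, the effect at 72 h minus the effect at 24 h was above 0 on the log2 scale. For MYBL2 it was 0.82 with AU2-94 at 1 µM, 1.55 with AU2-94 at 2 µM, 1.59 with atirmociclib at 1 µM, 1.04 with atirmociclib at 2 µM and 1.36 with ribociclib, with adjusted p from 1.93e-12 to 1.10e-06. For FOXM1 it was 0.83, 1.16, 0.70, 0.51 and 0.99 in the same order, with adjusted p from 2.05e-10 to 0.000156. LIN9 had 0.45 with AU2-94 at 2 µM (adjusted p 0.0214) and 0.48 with atirmociclib at 1 µM (0.0128). RBL1 had 0.77 with atirmociclib at 1 µM (0.0173). The LIN9 and RBL1 differences were lost without vehicle replicate 2 at 72 h (adjusted p 0.088, 0.0569 and 0.0506). The LIN9 difference with AU2-94 was also lost with quantile normalisation (0.39, 0.0509). The LIN9 difference with atirmociclib was lost as well without replicate 1 of its 24 h group (0.0549), and the RBL1 difference without replicate 3 of its 24 h group (0.0531). Seeding density differed between the time points, and its part cannot be told apart from that of time.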

How the results depend on the processing

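No called change of the 10 genes reversed under any alternative, and the calls of MYBL2, FOXM1 and RBL2 against vehicle held under all of them. With all 36 libraries in one fit, the combinations lower between treatments at 24 h went from 6 to 10, and those higher at 72 h from 1 to 3; the latter fell to 0 with equal totals and with quantile normalisation. The single fit also ended the LIN52 calls with AU2-94 at 24 h (adjusted p 0.053 and 0.0513), the RBL1 difference between atirmociclib and AU2-94 at 1 µM at 72 h (0.0979) and the MYBL2 dose difference of atirmociclib at 72 h (0.0566). In vehicle, genes lower at 72 h than at 24 h went from 0 to 1 with equal totals (RBL2, -0.16, adjusted p 0.0497). Over all comparisons, equal totals added 11 calls and ended 1. Among those added, LIN52 was lower with atirmociclib at 2 µM (limma adjusted p 0.0219 at 24 h, 0.0396 at 72 h) and with ribociclib at 24 h (0.0314). LIN9 was lower with ribociclib at 24 h (0.0312), and LIN54 with atirmociclib than with AU2-94 at 2 µM at 72 h (0.0302). The replicate block added 3 calls, LIN52 with atirmociclib at 2 µM and with ribociclib at 24 h (adjusted p 0.0336 and 0.0399) and RBL1 with AU2-94 at 1 µM at 72 h (0.0362), and changed no other call. Leaving out single libraries, 23 to 30 combinations were lower against vehicle at 24 h (12 to 13 with the fold condition) and 5 higher. At 72 h, 18 to 20 were lower (6 to 7 with the fold condition) and 5 to 7 higher. Between treatments 5 to 9 were lower and 0 higher at 24 h, whereas 11 to 14 were lower and 1 to 2 higher at 72 h. The change of effect with time was below 0 in 0 to 1 and above 0 in 10 to 16. Without ribociclib replicate 2 at 72 h, the higher calls between treatments rose from 1 to 2 and the changes of effect below 0 from 0 to 1. Fitting the compared groups alone ended the MYBL2 dose differences (limma adjusted p 0.0716 and 0.127). It also ended the ribociclib differences of MYBL2 and FOXM1 from AU2-94 at 72 h (0.0679 and 0.113). The RB1 call with ribociclib at 72 h (0.0718) and the RBBP4 call with atirmociclib at 1 µM at 24 h (0.0684) were lost too. The same setting added 4 calls, and fewer libraries entered those fits. Quantile normalisation ended the LIN52 calls with AU2-94 at 24 h (0.0634 and 0.0536), the LIN9 call with atirmociclib at 2 µM (0.0656) and the RB1 call with ribociclib at 72 h (0.0505), for which the cause was not tested. The spread of low genes such as LIN37 limits what could be detected.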
